A study of Homo sapiens with 4 samples.

Results

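Some names filed as microRNAs (miRNAs) carry sequences that also occur in transfer RNA (tRNA), small nuclear RNA (snRNA) or small nucleolar RNA (snoRNA), so a read given to such a name need not come from a miRNA hairpin. The entries of this kind described here were chosen by name from a list of 9 (miR-1246, miR-1248, miR-1260a, miR-1260b, miR-1275, miR-1290, miR-1291, miR-4286 and miR-664a). Of these names 7 had counts, as 8 of the 826 entries of the table, because miR-664a is listed as both of its arms; miR-1290 and miR-1291 were not analysed here. The cells were H661, an established human lung cancer line, kept in RPMI1640 with fetal bovine serum. All 4 libraries come from this line: 2 from cells treated for 8 h with DMSO, the solvent, and 2 from cells treated for 8 h with 2.5 µM entinostat. Entinostat is a benzamide that inhibits class I histone deacetylases, the enzymes that remove acetyl groups from histones. The comparison asks whether 8 h of the drug moved these entries, and how far 2 libraries of the same treatment lay apart.

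A typical miRNA is cut from a hairpin by Drosha and Dicer and loaded into an Argonaute protein, where bases 2 to 8, the seed, pair with target mRNAs. The RNAs that share sequence with the entries here have other work. U2 snRNA pairs with the intron branch point in the spliceosome, H/ACA snoRNAs such as SNORA81 and SNORA36B guide the conversion of uridine to pseudouridine, and tRNAs carry amino acids and end in CCA. All 3 are far more abundant in a cell than most miRNAs, and their fragments are common in small RNA libraries.

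The mature sequences are shown first because the identity of these entries rests on them. They are RefSeq sequences (GRCh38.p14, 5′ to 3′), with the seed in capitals, for the 7 of 8 entries that matched the sequence table.
miR-1260a: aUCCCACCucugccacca
miR-1260b: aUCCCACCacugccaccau
miR-1246: aAUGGAUUuuuggagcagg
miR-664a-3p: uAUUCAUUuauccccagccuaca
miR-664a-5p: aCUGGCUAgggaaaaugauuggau
miR-1248: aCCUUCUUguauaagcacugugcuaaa
miR-1275: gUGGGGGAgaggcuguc
Only miR-1260a and miR-1260b share a seed among these 7. Outside them, 1 entry among the 729 of the table with a matched sequence had any of these seeds, miR-4665-5p, which shares that of miR-1275. It had 3 and 5 counts in the DMSO libraries and 4 and 4 in the entinostat libraries. Entries without a matched sequence were not searched.

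In this set, 4 of the 7 sequences were found whole in a snRNA or snoRNA of GENCODE release 29. The stretches below show each match in capitals with up to 10 bases of the host RNA on either side.
miR-1246 in RNU2-1: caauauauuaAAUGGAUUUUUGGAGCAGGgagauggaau
miR-664a-5p in SNORA36B: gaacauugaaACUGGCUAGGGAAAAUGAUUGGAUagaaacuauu
miR-664a-3p in SNORA36B: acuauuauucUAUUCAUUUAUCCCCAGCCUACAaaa
miR-1248 in SNORA81: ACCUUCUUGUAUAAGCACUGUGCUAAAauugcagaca
All 19 bases of miR-1246 lie at positions 94 to 112 of U2 snRNA (RNU2-1, 191 bases, chr17:43233787-43233977, minus strand), and 19 annotated snRNA transcripts hold the same 19 bases. The miR-1246 hairpin itself is elsewhere (chr2:176600980-176601052, minus strand), where GENCODE lists no other gene. The 2 arms of miR-664a lie at positions 68 to 91 and 106 to 128 of SNORA36B, and 74 of the 82 bases of its hairpin (chr1:220200538-220200619, minus strand) overlap that snoRNA, in an intron of RAB3GAP2 on the same strand. The miR-1248 sequence is the first 27 bases of SNORA81. Its hairpin (chr3:186786672-186786777, plus strand) also lies in an exon of retained-intron transcripts of EIF4A2. Since the names were chosen for such overlap, these matches are a check of the choice, not a finding.

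The label was not borne out by these references for the other 3 sequences. Over 5722 transcripts of snRNA, snoRNA, ribosomal, mitochondrial and other small RNA classes, the longest stretch shared was 12 of 18 bases for miR-1260a, 12 of 19 for miR-1260b and 10 of 17 for miR-1275. None of the 465 tRNA genes in the RefSeq gene table overlapped any of the 6 hairpins of these 7 sequences. Position cannot show sequence shared with tRNA genes elsewhere. Nuclear tRNA sequences were not searched here, so sequence shared with them was not tested. The miR-1260a hairpin (chr14:77266218-77266290, plus strand) lies opposite an untranslated part of an exon of NGB, and that of miR-1260b (chr11:96341438-96341526, plus strand) opposite coding sequence of MAML2. GENCODE lists no other gene at the miR-1275 hairpin (chr6:33999972-34000051, minus strand). In earlier work miR-1260a, miR-1260b and miR-4286 were read as tRNA fragments, which is background here and was not tested.

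The pair miR-1260a and miR-1260b differ by 1 base in the 18 that align, U9A, counted from 1 at the 5′ end with the base of miR-1260a first, and by 1 extra base at the 3′ end of miR-1260b. The differing bases are in capitals.
miR-1260a: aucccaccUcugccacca
miR-1260b: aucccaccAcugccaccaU
Both hold the stretch CUGCCACCA (searched on the mature strand), which is in 2 of 2370 mature sequences of the RefSeq table, 0.0844%. Those 2 are this pair, and the stretch is what they share after the differing base, so its rarity only describes the pair. A read with an error at the ninth base could be given to the wrong name, and how the authors assigned such reads is not given in the sources used here, so the split between these names is uncertain.

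Short length was a further feature that the choice by name did not use. Mature length was 19 bases or fewer for 4 of the 7 sequences (miR-1246, miR-1260a, miR-1260b and miR-1275), against 27 of 729 entries of the table with a sequence, 3.70%, whose median was 22 bases. At the other end, miR-1248 was the longest of the 729 at 27 bases. In addition 6 of the 8 entries carry no arm suffix, as do 149 of the 826 entries (18.04%). The 4 short sequences supplied 26.6 to 29.9% of all counts of the short entries in the 4 libraries. This share takes each read as counted under a single name, which was not tested.

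**Figure D1:**
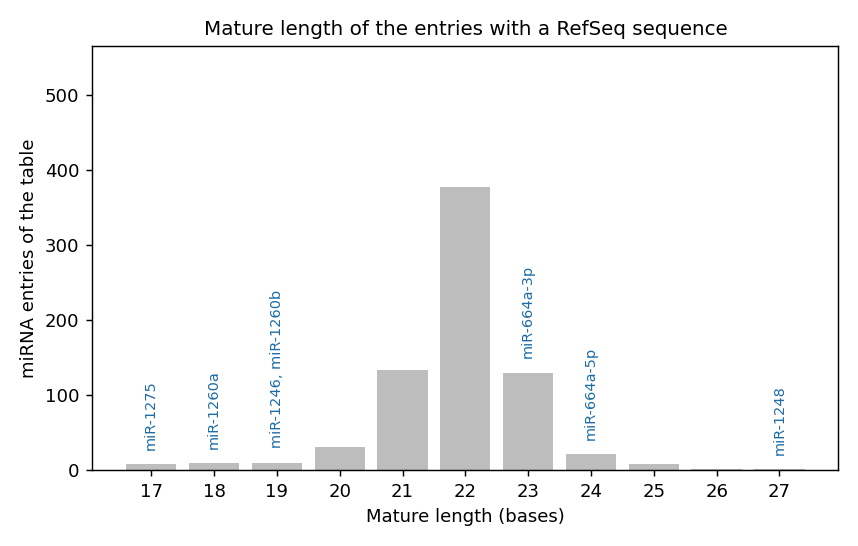
Number of entries of the table (vertical axis) at each mature length in bases (horizontal axis), over the 729 entries with a RefSeq sequence, with the 7 matched entries named above their bars. Most entries are near the median of 22 bases, while miR-1275, miR-1260a, miR-1260b and miR-1246 stand at 17 to 19 and miR-1248 at 27.

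Library totals were 938559 and 561485 for DMSO replicates 1 and 2, and 547875 and 753104 for entinostat replicates 1 and 2, so DMSO replicate 1 and entinostat replicate 2 were the deeper library of their treatment. A level below is the count divided by the library size, the size being corrected by a TMM factor (trimmed mean of M-values), times 1000000, and is written as CPM. The count table holds 750 values of 0, none of 1 and 381 of 2 among its 3304 values. A listed 0 may therefore stand for 0 or 1 count, and no upper limit is given for it. Of 7 epithelial marker miRNAs 4 had an entry, with a summed level of 40.9 to 77.2 CPM per library, mostly miR-200c-3p at 24.9 to 46.1 CPM. Mesenchymal markers had an entry for 3 of 4 names, with a summed level of 70.5 to 112 CPM. Most of it was miR-143-3p at 58.8 to 91.9 CPM. No liver or muscle marker had more than 16 counts in all. Of 7 blood markers 2 had an entry, and miR-486-5p, at 187.5 to 240.9 CPM, held nearly all of their counts.

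The 8 entries together held a small and similar part of both treatments. Their summed share of a library was 0.198% and 0.208% in the DMSO pair and 0.187% and 0.220% in the entinostat pair, or 0.203 ± 0.00656% and 0.203 ± 0.0234% (SD, n = 2). The 2 entinostat libraries lay on either side of both DMSO libraries. A single entry, miR-1260b, made up 74.2% and 77.3% of these counts with DMSO and 79.2% and 73.2% with entinostat.

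No entry passed the threshold between entinostat and DMSO. Of the 8, 6 passed the filter on low counts and were tested, and 0 of them had a Benjamini-Hochberg adjusted p under 0.05 in the edgeR quasi-likelihood test. The background was 0% of the 401 entries tested in all. At an unadjusted p under 0.05 the counts were 0 of the 6 and 27 of the 401 (6.73%). The calls were 0 with DESeq2 too, run on all 826 entries without this filter, of which 11 had an unadjusted p under 0.05. With limma-voom on the 401 entries the calls were 0, and 31 had an unadjusted p under 0.05. Of the 6, 4 lay above 0 and 2 below (median log2 fold change 0.05), against 208 of 401 above 0 (51.9%, median 0.00466). For 1 of the 6 both libraries of one treatment lay below both of the other, and such separation in either direction was seen in 40.6% of all tested entries. Nothing in the labels says that the libraries of a treatment came from separate cultures, so the p-values reflect only how far these libraries differ, and that difference can be technical.

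**Figure D2:**
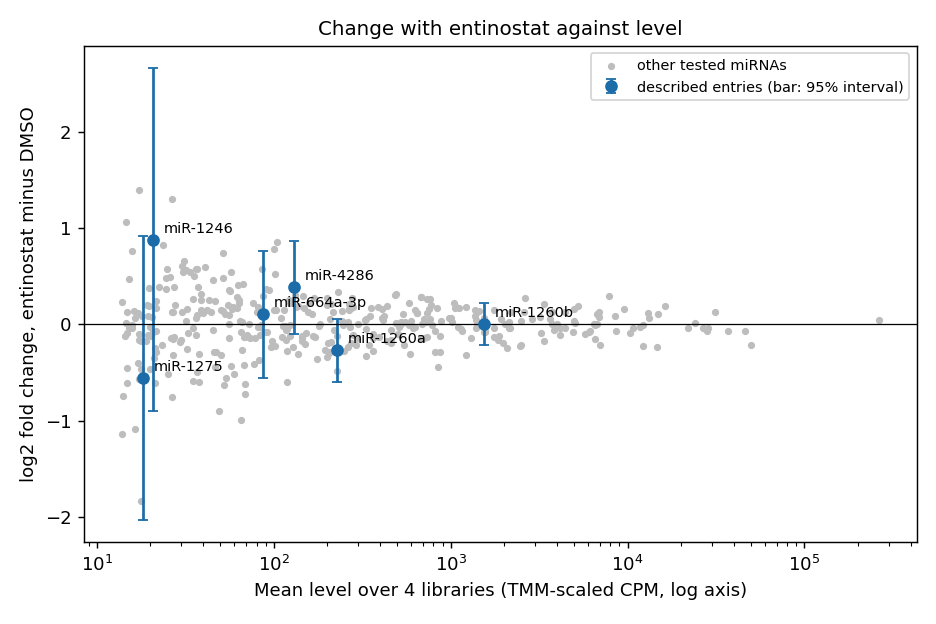
Log2 fold change, entinostat minus DMSO (vertical axis), against mean level in TMM-scaled CPM (horizontal log axis) for the 401 tested entries, with the 6 described ones in blue and their 95% intervals from the fitted standard error as bars. Every blue bar crosses 0, and the bars of miR-1246 and miR-1275, at 20.8 and 18.2 CPM, are the widest of the 6.

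Among the names linked to tRNA, hsa-miR-1260b was the most abundant and had the narrowest interval. Its level was 1476 and 1603 CPM with DMSO and 1487 and 1594 CPM with entinostat, so the treatments overlapped almost completely. The means were 1539 ± 89.6 and 1540 ± 75.8 CPM (SD, n = 2), a log2 fold change of 0.00435 (SE 0.10, 95% interval -0.22 to 0.22; edgeR adjusted p = 0.990). A change of more than 1.17-fold up, or below 0.861-fold, lay outside that interval. It ranked 78 of 826 by mean level.

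Its near twin hsa-miR-1260a was the one entry of the 6 whose treatments did not overlap. It stood at 254.4 and 245.5 CPM with DMSO and at 193.0 and 219.8 CPM with entinostat, the entinostat libraries being the lower. The fold was 0.829 (95% interval 0.663 to 1.04; edgeR adjusted p = 0.595; log2 fold change -0.27, SE 0.14), which did not pass the threshold. Libraries lay apart in this downward direction in 20% of all tested entries. Summed into 1 entry, the 2 names had a log2 fold change of -0.03 (95% interval -0.25 to 0.18; edgeR adjusted p = 0.923).

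The split between both names does not depend on the scaling of the libraries. Of the reads given to either name, miR-1260a took 14.7% (exact Clopper-Pearson 95% interval 13.0 to 16.5%) and 13.3% (11.3 to 15.5%) in the DMSO libraries. With entinostat it took 11.5% (9.49 to 13.7%) and 12.1% (10.4 to 13.96%). Both DMSO shares were above both entinostat shares, and the intervals, which cover counting error only, overlapped between the treatments. Shares of this kind were not computed for other pairs of names. For levels, such separation in either direction was seen in 40.6% of all tested entries. The shares and intervals, like the sum of both names, take each read as counted under a single name, which was not tested. Because the names differ by 1 internal base, a shift in read assignment and a shift in abundance cannot be told apart in these counts.

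The third name linked to tRNA, hsa-miR-4286, was at 105.8 and 122.7 CPM with DMSO and at 119.5 and 171.1 CPM with entinostat. One entinostat library was high, and the other lay between the DMSO libraries. The means of 114.3 ± 11.97 and 145.3 ± 36.5 CPM (SD, n = 2) gave a fold of 1.30 (95% interval 0.933 to 1.82; edgeR adjusted p = 0.595; log2 fold change 0.38, SE 0.21). The log2 fold change fell to 0.08 when entinostat replicate 2 was left out, against 0.58 (edgeR adjusted p = 0.211) when replicate 1 was, so its size rested on the single high library.

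The entry inside U2 snRNA, hsa-miR-1246, differed more within each treatment than between them. Its counts were 23 and 2 with DMSO and 5 and 35 with entinostat, or 24.6 and 3.56 against 9.19 and 46.1 CPM. The deeper library of each treatment was high and the shallower low, so the treatments overlapped. The log2 fold change of 0.88 had an SE of 0.78 and a 95% interval of -0.90 to 2.65 (edgeR adjusted p = 0.741), and its SE was the second largest of the 401 entries. It was 2.97 without DMSO replicate 1, 0.24 without DMSO replicate 2 and 1.50 without entinostat replicate 1, and it turned to -0.78 without entinostat replicate 2. The direction is therefore not settled by these 4 libraries.

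The ratio of the deeper to the shallower library, after scaling for depth, gives the spread within each treatment. For miR-1246 it was 6.91 with DMSO (exact interval for counting error 1.71 to 60.5) and 5.01 with entinostat (1.96 to 16.4). No tested entry had a larger ratio with DMSO, and 1 had with entinostat. The median ratio over the 401 tested entries was 0.998 with DMSO and 1.01 with entinostat. A ratio over 2 in the deeper library of both treatments was found in 3 of the 401, all with under 100 counts in total: miR-1246, miR-1275 and miR-21-3p, the last named after its values were seen. The opposite, a level over 2-fold lower in the deeper library of both treatments, was found in 1 of the 401, miR-7704, also named after its values were seen (8.55 against 28.5 CPM with DMSO and 10.5 against 22.1 CPM with entinostat). Low counts make large ratios more likely, and 82 of the 401 had under 100 counts. What differed between deeper and shallower libraries apart from depth is not given in the labels, and its part in these ratios was not tested.

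Within each depth class miR-1246 was higher with entinostat by value. The entinostat to DMSO ratio was 1.87 between the deeper libraries (counting interval 1.08 to 3.32) and 2.58 between the shallower ones (0.423 to 27.1). Each ratio compares 1 library with 1 other, not the conditions. For miR-1275 the same ratios were 0.764 (0.400 to 1.42) and 0.443 (0.0739 to 1.94), and for miR-1260a they were 0.864 (0.705 to 1.06) and 0.786 (0.604 to 1.02), below 1 in both classes. How many of all tested entries kept direction was not counted, so keeping it is not read as a result. The other 3 tested entries changed direction between the classes. The ratio was 1.62 (1.24 to 2.12) between the deeper and 0.973 (0.683 to 1.39) between the shallower libraries for miR-4286. It was 1.35 (0.990 to 1.85) and 0.726 (0.450 to 1.16) for miR-664a-3p, and 1.08 (0.999 to 1.17) and 0.928 (0.843 to 1.02) for miR-1260b.

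**Figure D3:**
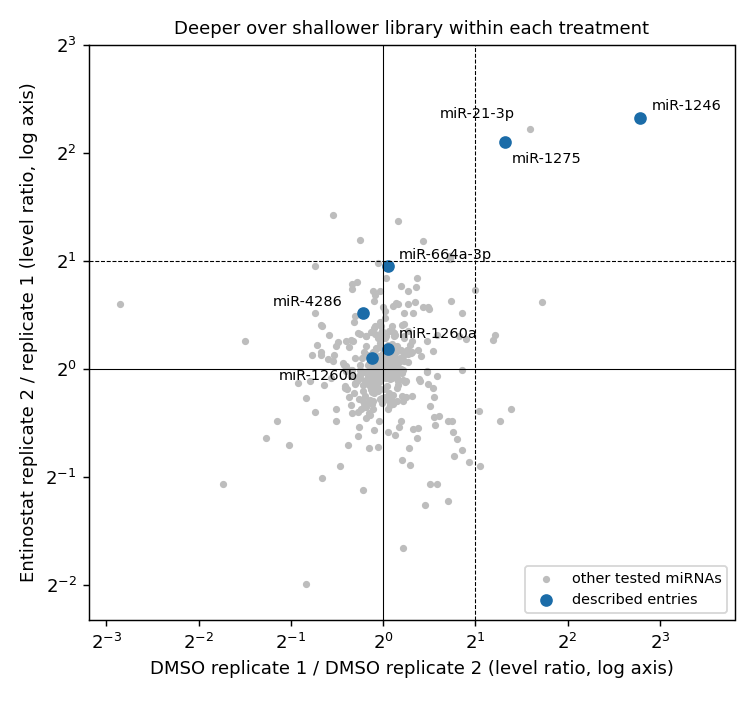
Ratio of the deeper to the shallower library in TMM-scaled CPM, with DMSO (horizontal log axis) and with entinostat (vertical log axis), for the 400 tested entries with a count in every library, and with dashed lines at 2. Most entries lie near 1 on both axes, while miR-1246, miR-1275 and miR-21-3p stand alone above 2 on both and 1 entry lies below 0.5 on both.

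The other described entry with this pattern was miR-1275, the one with the shortest sequence and no host found. Its counts were 29 and 7 for DMSO and 3 and 18 for entinostat, or 31.0 and 12.5 against 5.51 and 23.7 CPM. Again the deeper library of each treatment was the higher one, by 2.49-fold with DMSO (counting interval 1.07 to 6.73) and 4.30-fold with entinostat (1.25 to 22.8). The log2 fold change with entinostat was -0.56 (SE 0.64, 95% interval -2.03 to 0.91; edgeR adjusted p = 0.796). It was 0.32 without DMSO replicate 1, -0.9999 without DMSO replicate 2, 0.01 without entinostat replicate 1 and -2.04 without entinostat replicate 2, so leaving out either DMSO replicate 1 or entinostat replicate 1 turned the sign.

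Of the entries inside snoRNAs, only the 3′ arm of miR-664a had enough counts for testing. In the DMSO libraries miR-664a-3p was at 86.6 and 83.6 CPM, and in the entinostat libraries at 60.7 and 117.2 CPM. The DMSO libraries lay close together and the entinostat libraries fell on either side of them. The log2 fold change was 0.10 (SE 0.29, 95% interval -0.56 to 0.77; edgeR adjusted p = 0.927), and leaving out entinostat replicate 2 gave -0.50 where leaving out replicate 1 gave 0.44. The deeper to shallower ratio was 1.04 with DMSO (counting interval 0.714 to 1.52) but 1.93 with entinostat (1.28 to 2.97).

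The 5′ arm, miR-664a-5p, had 11 and 0 counts in the DMSO libraries against 2 and 4 in the others, and was not tested. The 3′ arm held 88.0% of the counts of both arms in DMSO replicate 1 (exact 95% interval 79.6 to 93.9%), 94.3% in entinostat replicate 1 (80.8 to 99.3%) and 95.7% in entinostat replicate 2 (89.4 to 98.8%). In DMSO replicate 2 the 3′ arm had 47 counts and the 5′ arm was listed at 0. A 3′ arm in excess was thus seen in every library. The entry miR-1248 had 2 counts, both in DMSO replicate 2, and was listed at 0 elsewhere, so nothing can be said of its change.

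**Figure D4:**
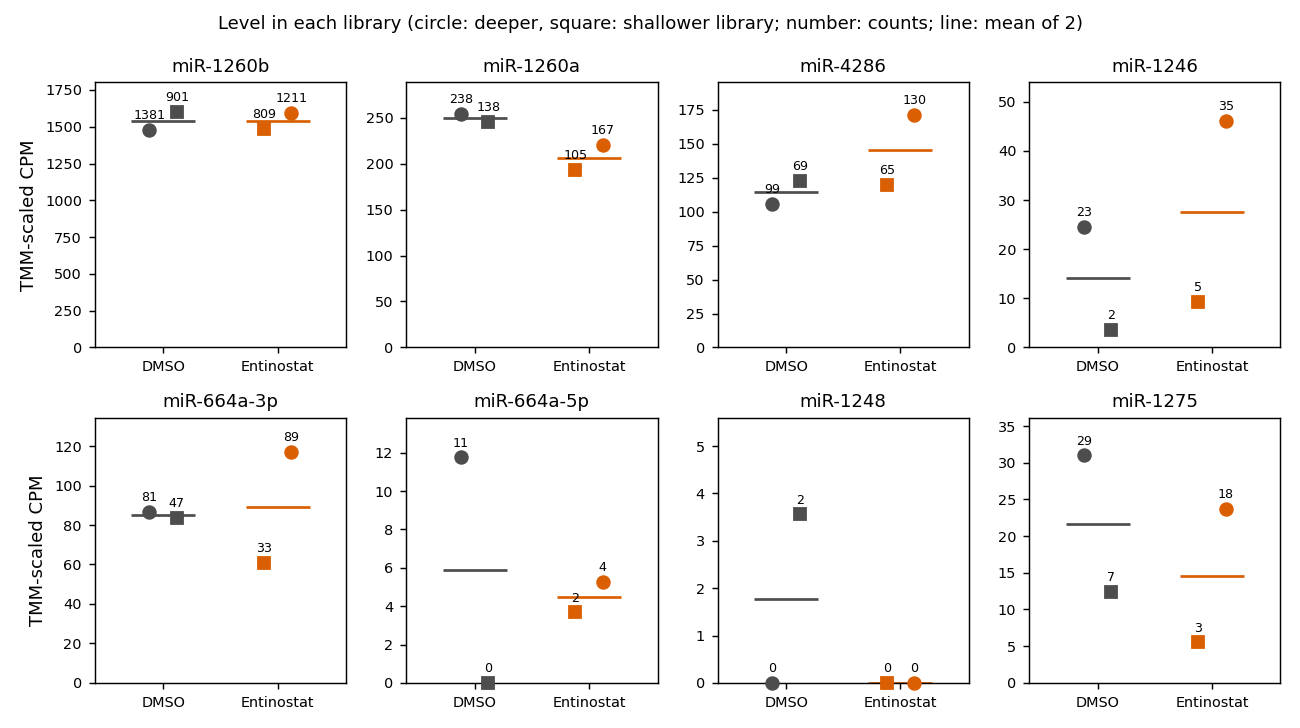
Level in TMM-scaled CPM (vertical axes, each from 0) of the 8 entries in the DMSO and entinostat libraries, with circles for the deeper and squares for the shallower library, counts printed at each point and lines at the mean of 2. The 2 circles lie above both squares for miR-1246, miR-1275, miR-664a-3p and miR-664a-5p, whereas for miR-1260b all 4 points are between 1476 and 1603 CPM.

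The spread between libraries of a treatment was uneven over the 6 tested entries. The edgeR biological coefficient of variation was 6.98% for miR-1260b, 7.50% for miR-1260a, 11.8% for miR-4286, 16.9% for miR-664a-3p, 32.6% for miR-1275 and 49.1% for miR-1246. The median was 14.4% over the 6 and 8.86% over all 401. The order follows falling abundance except for the last 2 entries, and no test was made of it.

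Other names linked to tRNA, snoRNA, ribosomal, mitochondrial or vault RNA, from a list of 20 beside the entries above, had few counts. Counts were seen for 6 of the 20 names as 7 entries, and 0 of these passed the filter. Their summed counts were 28 and 12 in the DMSO pair and 12 and 27 in the entinostat pair. The highest were miR-4485-3p, of mitochondrial ribosomal RNA, with 16 and 4 against 4 and 5 counts, and miR-3687, of the ribosomal RNA precursor, with 6 and 4 against 5 and 13. Over all 729 entries with a sequence, 8 (1.10%) lay whole inside another small RNA class. Besides the 4 described above they were miR-664b-3p, miR-664b-5p, miR-4485-3p and miR-6516-5p, named after the search, and none of these was tested.

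For each entry with 100 or more counts, the tested entries with the most similar profile were taken as those with the smallest root mean square distance of centred log2 CPM over the 4 libraries. For miR-1260b these were miR-335-3p (distance 0.0259 log2 units) and miR-182-5p (0.0328). For miR-1260a they were miR-96-5p (0.0454) and miR-320b (0.0478), and for miR-4286 miR-23a-3p (0.0773) and miR-642a-3p (0.0795). The nearest to miR-664a-3p lay farther off, miR-548k at 0.0871 and miR-769-3p at 0.104. With 4 libraries many profiles lie close by, so these distances only describe the table.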

How the data were processed

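Small RNA was sequenced from 4 libraries of H661 cells. Per the labels' protocols, Trizol was used for the RNA and NEB small RNA kits for the libraries. The submitters' processing notes name bcl2fastq 2.18. How reads were aligned, counted and annotated, on which build, and how reads shared by similar sequences were treated is not given in the sources used here. Counts of miR-365a-3p and miR-365b-3p, named after their values were seen, were equal in every library. They were 607 and 336 with DMSO and 324 and 572 with entinostat. A read may therefore be counted under more than 1 name, and how often was not tested. Per mature miRNA name, the authors deposited raw read counts. They contain no value of 1, and which step removed such values is not given. The authors' CPM table was not used.

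Counts were scaled by TMM and tested over the whole table with edgeR 4.0.16 in R 4.3.3 (quasi-likelihood test), treatment being the only term. The filterByExpr defaults (minimum count 10, minimum total 15) left 401 of 826 entries. The threshold was a Benjamini-Hochberg adjusted p under 0.05. On 10 simulated tables per size with 200 of 401 entries changed, the test found 67.4% of 1.5-fold, 89.4% of 2-fold and 98.6% of 3-fold changes. These tables gave every entry the common biological coefficient of variation of 8.05%. It was larger in the data for miR-1246 (49.1%), miR-1275 (32.6%), miR-664a-3p (16.9%) and miR-4286 (11.8%), so the rates do not apply to them. It was smaller for miR-1260a (7.50%) and miR-1260b (6.98%). With 200 of 401 entries changed, an adjusted p under 0.05 is easier to reach than where few change. The rates therefore do not carry over to a single changed entry, miR-1260a and miR-1260b included. Totals of 547875 to 938559 counts set the precision, shown by the intervals. No molecular identifiers are named, so exact binomial intervals cover counting error only.

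Sequences came from RefSeq (GRCh38.p14), matched by name for 729 entries, and hosts from GENCODE 29 (GRCh38), which need not be the authors' annotation. The entries and lists were chosen with earlier results of these data known. All entries of the rule are named. Others are named as the nearest profiles, as members of the 20-name list or of the marker lists, or as said in the text. Alternatives covered scaling, filter, tool (DESeq2 1.42.0, limma-voom of limma 3.58.1, likelihood ratio test), a replicate block, each library left out, and miR-1260a and miR-1260b summed. Intervals and sequence searches used Python 3.11.15 (SciPy 1.17.1, pandas 2.3.3), and plots matplotlib 3.10.9.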

Additional observations from a re-analysis of the deposited data

How the results depend on the processing

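None of the 6 tested entries was called under any of the 16 alternatives run. The count over all entries was 0 with each of them, except 4 with the likelihood ratio test and 5 without entinostat replicate 1, so it ranged from 0 to 5 when 1 library was left out. Leaving out 1 library moved the log2 fold change from -0.78 to 2.97 for miR-1246, from -2.04 to 0.32 for miR-1275, from -0.50 to 0.44 for miR-664a-3p and from -0.0685 to 0.0411 for miR-1260b. It kept its sign for miR-1260a (-0.38 to -0.20) and miR-4286 (0.08 to 0.58). The value of miR-1260b, near 0, also turned negative with DESeq2-kind size factors (-0.0017), with a mean CPM of 10 or more (-0.0088), with DESeq2 (-0.0037) and when summed with miR-1260a (-0.0321). Upper quartile factors moved the median of all entries from 0.00466 to 0.12 and turned no sign among the 6. Nothing in the labels says that the replicate numbers are a pairing, so the main fit took none. Same-numbered libraries correlated at -0.111 in their deviations from the group means. In this design the crossed libraries give the same value with the other sign (0.111), so it cannot decide on a pairing. With the replicate number as a block, 0 entries were called and 25 had an unadjusted p under 0.05. With the crossed pairing, added after seeing the data, the counts were 0 and 32. Where an arm kept 1 library, that library was assumed to vary like the others. Counts under 100 limit miR-1246, miR-1275, miR-664a-5p and miR-1248.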

Other observations

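Short mature sequences formed a small class that was dominated by few names, here named after their values were seen. The 27 entries of 19 bases or fewer made up 0.622 and 0.656% of the DMSO libraries and 0.634 and 0.635% of the entinostat libraries. The most abundant of them, miR-3180, had 11105 counts over the 4 libraries, followed by miR-1260b with 4302 and miR-1260a with 648. The entry miR-3180-3p, not among the 27, had nearly as many counts in each library. It had 3451 and 2150 with DMSO and 2127 and 2765 with entinostat, against 3635, 2296, 2271 and 2903 for miR-3180. Whether the same reads were counted under both names, on which the shares above depend, was not tested. Of the 27, 14 passed the filter on low counts.

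The pattern of miR-1246 and miR-1275 was shared by miR-21-3p, the minor arm of the miR-21 hairpin. Its ratio of the deeper to the shallower library was 3.004 with DMSO and 4.66 with entinostat, on 60 counts in all.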
